A study of Mus musculus with 2 samples.

Results

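A set of 7 genes that mark the layers of the embryonic heart wall were followed in ventricles without Fendrr and in wild-type ventricles. They were chosen by name, 5 as markers of the trabecular layer (Nppa, Nppb, Smpx, Cited1 and Cpne5) and 2 as markers of the compact layer (Hey2 and Mycn). All 7 had a row among the 23276 gene symbols of the deposited table, and all 7 were among the 11349 genes called expressed. A gene was called expressed where its KO and WT values averaged 1 FPKM or more, FPKM being fragments scaled to transcript length and library depth. The KO library came from mouse embryos in which both alleles of the long non-coding RNA gene Fendrr had been knocked out by homologous recombination. The WT library came from wild-type embryos. Both groups were of stage E12.5 on a C57BL/6 x 129SV background. All embryos, of either genotype, derived from embryonic stem cells by tetraploid complementation, where the stem cells form the embryo and a tetraploid host forms mainly the placenta. Whether the embryonic stem cells of a genotype came from 1 clone is not given in the sources used here. RNA of 4 pooled heart ventricles was used for each genotype and gave 1 strand-specific library of total RNA depleted of ribosomal RNA.

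At this stage the ventricular wall has an outer compact layer, whose cardiomyocytes divide and thicken the wall, and an inner network of muscular ridges, the trabeculae, whose cardiomyocytes divide less and are more differentiated. Neuregulin from the endocardium, its ErbB receptors on the muscle, Notch signalling and BMP10 are known to shape the trabeculae, while FGF, retinoic acid and IGF signals are known to sustain growth of the compact layer. In RNA of whole ventricles, a thinner layer (fewer cells of a type) and less RNA per cell cannot be told apart.

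With 1 library per genotype no value has a replicate check, no test of genotype was possible, and every comparison is between these 2 libraries. The KO and WT libraries were sequenced on separate runs, and the bases of the WT run were called by hand after that run had aborted, so that run and genotype cannot be told apart. Total depth is unknown. From whole-read steps among low genes, the KO library was 1.26 times as deep as WT, given scaling to every mapped fragment. The targeted gene did not check the labels: its row, under the older symbol 1110050K14Rik, was listed at 0 in the KO library and at 0 in the WT library. The median log2 ratio of KO over WT, taken on FPKM + 1, was -0.11 over the 11349 expressed genes, and 95% of them lay between -0.64 and 0.49. In these data 53 genes (0.467%) passed the 2-fold limit upwards in KO and 44 (0.388%) downwards.

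None of the 7 wall markers was 2-fold apart between the libraries. With 0.855% of all expressed genes past that limit in either direction, 0 of 7 is near the background and is not a result about these genes. Nor was any of the 7 past 1.5-fold, a limit that 5.14% of expressed genes passed (3.60% lower and 1.54% higher in KO). A KO value below the WT value was found in 6 of the 7, and in 67.0% of all expressed genes. Mycn had the log2 ratio furthest from 0, -0.52, and Cited1 was the one gene with a KO value above its WT value. The median log2 ratio was -0.15 over the 5 trabecular genes and -0.33 over the 2 compact genes, against -0.11 over all expressed genes.

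**Figure D1:**
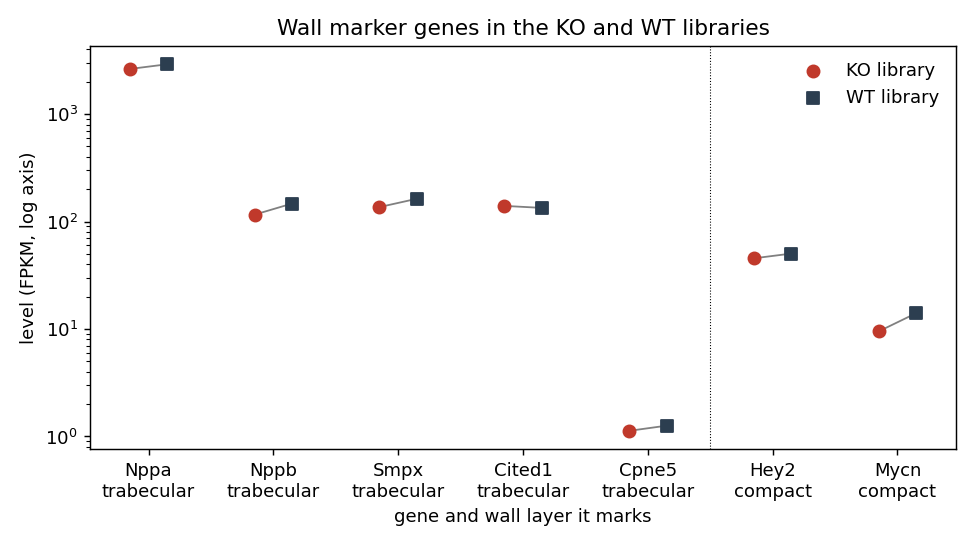
Level of each wall marker gene in FPKM (log axis) in the KO library (circle, left) and the WT library (square, right), with 1 library per genotype and no error bar. The genes span from 1.13 FPKM (Cpne5 in KO) to 2911 FPKM (Nppa in WT), and the KO and WT points of each gene lie close together on this scale.

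The natriuretic peptide genes Nppa and Nppb are neighbours on chromosome 4, and Hey2 and Mycn lie on chromosomes 10 and 12. The promoter windows of these pairs, from 250 bases before to 50 bases after the RefSeq start site in build GRCm38.p6, are shown because the first pair holds the most abundant member and the second pair makes up the compact class. The sequences are those of RefSeq, a build other than that of the expression values, and are written 5′ to 3′ on the strand of the gene. Capitals mark every match, on either strand, to GATA (bound by GATA factors), AAGTG (Nkx2-5), TCACAC (T-box factors), CACGTG (MYC and HEY factors), TGGGAA (RBPJ, the nuclear factor of Notch signalling), CATTCC (TEAD factors), the CArG box (SRF), the MEF2 box or TATAAA, the last added after the sequences had been seen.
Nppa, chr4:148000472-148000771, + strand: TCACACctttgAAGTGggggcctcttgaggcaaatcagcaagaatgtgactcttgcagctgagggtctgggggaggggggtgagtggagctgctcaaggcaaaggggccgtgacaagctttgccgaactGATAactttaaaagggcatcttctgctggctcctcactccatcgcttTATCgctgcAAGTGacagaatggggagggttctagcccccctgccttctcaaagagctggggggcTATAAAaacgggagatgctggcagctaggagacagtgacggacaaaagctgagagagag
Nppb, chr4:147985650-147985949, + strand: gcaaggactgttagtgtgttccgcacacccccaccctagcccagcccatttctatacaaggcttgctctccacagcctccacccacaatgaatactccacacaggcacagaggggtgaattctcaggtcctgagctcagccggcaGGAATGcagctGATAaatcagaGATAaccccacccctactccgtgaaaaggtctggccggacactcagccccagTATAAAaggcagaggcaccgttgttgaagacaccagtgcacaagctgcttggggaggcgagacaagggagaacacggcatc
Hey2, chr10:30842734-30843033, - strand: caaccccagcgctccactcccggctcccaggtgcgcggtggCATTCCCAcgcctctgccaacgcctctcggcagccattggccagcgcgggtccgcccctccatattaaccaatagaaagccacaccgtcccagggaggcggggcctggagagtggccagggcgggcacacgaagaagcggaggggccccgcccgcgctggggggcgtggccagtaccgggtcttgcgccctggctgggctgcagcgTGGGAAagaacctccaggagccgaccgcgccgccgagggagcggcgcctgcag
Mycn, chr12:12941787-12942086, - strand: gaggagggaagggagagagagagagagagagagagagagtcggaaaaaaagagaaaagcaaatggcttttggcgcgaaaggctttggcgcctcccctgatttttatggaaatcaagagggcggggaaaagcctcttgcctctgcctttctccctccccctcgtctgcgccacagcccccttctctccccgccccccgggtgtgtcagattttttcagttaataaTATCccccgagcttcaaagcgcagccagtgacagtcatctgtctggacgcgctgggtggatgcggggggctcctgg
Nppa and Nppb each held 2 GATA matches, at positions -121 and -74 in Nppa and -94 and -83 in Nppb, and each held 1 TATAAA. Nppb also held a CATTCC match on the opposite strand, at -105. Nppa also held 2 AAGTG matches, at -239 and -65, and 1 TCACAC at -250. Hey2 held 2 TGGGAA matches, at -207 and -3, the first of which overlaps a CATTCC match at -209. Mycn held a single GATA match, at -26. The windows were 54.7% G and C in Nppa, 55.7% in Nppb, 72.0% in Hey2 and 56.7% in Mycn, beside a median of 52.7% over the 27025 promoters of the table (1 window per gene).

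Over all 7 genes (the first listed window of each), GATA was present in 4 windows (Nppa, Nppb, Smpx and Mycn), and 58.3% of all promoters held it. AAGTG was present in 3 (Nppa, Cited1 and Cpne5), against 46.5% of all promoters. TATAAA was present in Nppa, Nppb and Cited1, against 14.2% of all promoters. CATTCC was found in Nppb and Hey2 (14.6% of all promoters), TGGGAA in Hey2 and Cpne5 (25.5%), and TCACAC in Nppa alone (14.4%). The CArG box was matched in Cited1 alone (1.57% of all promoters). CACGTG (7.24%) and the MEF2 box (3.26%) were matched in none of the 7. These matches are letters in short windows and say nothing of binding.

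Nppa encodes the precursor of atrial natriuretic peptide, a hormone that in the embryonic ventricle is made by trabecular cardiomyocytes. It was at 2631 FPKM in the KO library and 2911 FPKM in the WT library, and was the 6th most abundant gene symbol in KO and the 5th in WT. The KO value was 9.59% below the WT value (log2 ratio -0.15), and 44.1% of expressed genes had a lower ratio. Nppa is overlapped on the opposite strand by the antisense gene Gm13054 in GENCODE vM21. That antisense gene had no row, and whether strand was used in the authors' counting is not given in the sources used here.

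Nppb encodes the precursor of brain natriuretic peptide, the second cardiac natriuretic hormone. It was at 116 FPKM in KO and 147 FPKM in WT, 21.2% below the WT value, with a log2 ratio of -0.34. Of all expressed genes, 17.1% had a lower ratio. Nppa was thus 22.7 times as abundant as its neighbour in the KO library and 19.8 times in the WT library, in FPKM.

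The genes beside this pair were also measured. Clcn6, which encodes a chloride and proton exchanger of endosomes and is next to Nppa, was at 1.38 FPKM in KO and 2.31 FPKM in WT (log2 ratio -0.48). On the other side of Nppb, 2510039O18Rik was at 10.5 FPKM in KO and 12.2 FPKM in WT (-0.19), and Plod1, a collagen lysyl hydroxylase gene, was at 19.5 FPKM in KO and 12.9 FPKM in WT (0.56). The pair and its neighbours therefore lay on both sides of 0 on the log2 scale.

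Smpx, or Chisel, is an X-linked gene for a small protein of striated muscle that sits at the contacts between the contractile apparatus and the cell membrane. It was at 136 FPKM in KO and 163 FPKM in WT, and the KO value was 16.3% below the WT value (log2 ratio -0.26, with 27.1% of expressed genes lower). Cited1, also on the X chromosome, encodes a transcriptional coregulator that binds the acetyltransferases CBP and p300. It was at 140 FPKM (139.977) in KO and 134 FPKM in WT, and the KO value was 4.40% above the WT value. The log2 ratio of Cited1 was 0.06, and 75.4% of expressed genes had a lower one.

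Cited1, Smpx and Nppb had similar levels and did not keep their order between the libraries. In the KO library Cited1 was the second of the 7 genes in abundance, ahead of Smpx and Nppb, and in the WT library it was the fourth, behind both. The ratio of Cited1 to Nppb was 1.21 in KO and 0.911 in WT, and that of Cited1 to Smpx was 1.03 in KO and 0.822 in WT. Without replicates it cannot be said whether these neighbours in the order differ beyond the spread between samples. For the X chromosome as a whole, the median log2 ratio was -0.06 over 372 expressed genes, against -0.11 over 10024 autosomal genes. The Y-linked gene Eif2s3y was listed at 0 in KO and was at 10.1 FPKM in WT. Y-linked RNA was not absent from KO: Ddx3y was at 0.786 FPKM in KO and 17.7 FPKM in WT, and Uty at 0.535 FPKM in KO and 9.24 FPKM in WT. The libraries thus also differ in their Y-linked transcripts. Xist, the RNA of the inactive X chromosome, was at 0.0677 FPKM in KO and 0.0454 FPKM in WT. The part of sex chromosome content in the values of Smpx and Cited1 was not tested.

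Cpne5 encodes a copine, one of a family of proteins that bind membranes in response to calcium. It was by far the least abundant of the trabecular genes, at 1.13 FPKM in KO and 1.26 FPKM in WT, near the limit for expressed genes. The KO value was 10.5% below the WT value, and the log2 ratio of -0.09 on FPKM + 1 (-0.16 on FPKM alone) had 53.6% of expressed genes under it. Of the 7 genes it rests on the fewest fragments per length, and with depth unknown its difference cannot be told from counting error. GENCODE vM21 also lists a gene without a row, AC162182.2, on the opposite strand within Cpne5.

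Hey2 encodes a bHLH repressor of the Hairy family that acts downstream of Notch in many tissues and marks the compact myocardium. It was at 45.5 FPKM in KO and 50.4 FPKM in WT, 9.64% below the WT value, with a log2 ratio of -0.14. It held the same place among all gene symbols in both libraries, the 1120th from the top. The ratio of Nppa to Hey2 was 57.8 in KO and 57.8 in WT.

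Mycn encodes the MYC family factor N-myc, which drives cell growth and division in the embryonic compact wall. It was at 9.51 FPKM in KO and 14.0 FPKM in WT, so that the KO value was 32.3% below the WT value. The log2 ratio was -0.52, or -0.41 relative to the median of all genes, and 5.52% of expressed genes had a lower one. Among the 4514 genes of a mean between 5 and 20 FPKM, to which Mycn belongs, 95% had a log2 ratio between -0.63 and 0.44, a range that includes Mycn. With the scaling by the inferred relative depth undone, this equals 0.850 KO reads for each WT read, from the deeper KO library.

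**Figure D2:**
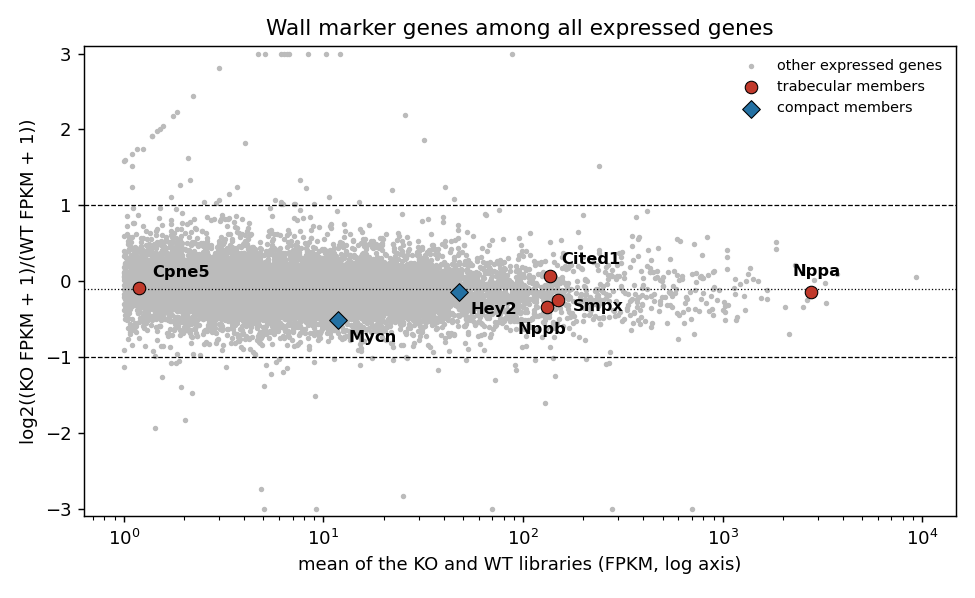
Log2 ratio of KO over WT on FPKM + 1 against the mean of both libraries in FPKM (log axis) for the 11349 expressed genes (grey), the 5 trabecular genes (red circles) and the 2 compact genes (blue diamonds). Dashed lines mark 2-fold and the dotted line the median of all genes (-0.11). Genes past a log2 ratio of 3 or -3 are drawn at that value. All 7 markers lie inside the dashed lines, Mycn lowest at -0.52.

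Ratios between a trabecular and a compact gene within a library are not altered by a single factor applied to the whole library. Quantile normalization is not such a factor and can alter them. All 10 such pairs were compared, and the ratio in KO was between 0.873 and 1.54 times that in WT. With Hey2 as the denominator, some ratios were larger in KO and others larger in WT. Nppb over Hey2 was 2.55 in KO and 2.92 in WT. Cited1 over Hey2 was 3.08 in KO and 2.66 in WT.

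Over Mycn all 5 trabecular genes had the larger ratio in KO. Nppa over Mycn was 277 in KO and 207 in WT, and Cited1 over Mycn was 14.7 in KO and 9.55 in WT, the pair with the quotient of 1.54. These 5 ratios share Mycn. The ratio of the compact genes to each other, Hey2 over Mycn, was 4.79 in KO and 3.59 in WT, a quotient of 1.33, as it was for Nppa over Mycn. The log2 ratios thus did not divide the 7 genes by layer. Relative to the median of all genes they were -0.04 for Nppa, 0.02 for Cpne5 and -0.03 for Hey2, and -0.41 for Mycn.

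The markers of the tissue fit the label of heart ventricle. Ventricular cardiomyocyte markers (10 of 10 expressed) summed to 20743 FPKM in KO and 20519 FPKM in WT, led by the ventricular myosin light chain gene Myl2 at 9478 FPKM in KO and 9103 FPKM in WT. They did not move as one: Myl3 was at 1651 FPKM in KO and 2671 FPKM in WT (log2 ratio -0.69), and Tnnt2, the cardiac troponin T gene, at 2174 FPKM in KO and 1524 FPKM in WT (0.51). Atrial markers (10 of 10 expressed), which bear on Nppa because atrial muscle also makes it, summed to 3701 FPKM in KO and 4460 FPKM in WT. Their median log2 ratio was -0.03, and 5 of 10 had KO values above WT values and 5 of 10 below, beside 67.0% of all expressed genes below. Myl4 and Myl7, atrial light chain genes that make up most of that sum, were below WT, Myl7 at 773 FPKM in KO and 1001 FPKM in WT (-0.37), while Myh6 was at 596 FPKM in KO and 545 FPKM in WT (0.13). The atrial marker genes Sln, at 3.27 FPKM in KO and 2.79 FPKM in WT, and Nr2f2, at 1.82 FPKM in KO and 1.55 FPKM in WT, were low in both libraries. Others of the list were not as low, among them Angpt1 at 43.7 FPKM in KO and 37.4 FPKM in WT. Dkk3 was at 29.3 FPKM in KO and 25.1 FPKM in WT. The part of atrial tissue in the level of Nppa was not tested.

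Markers of endocardium and endothelium, epicardium, cushion mesenchyme and erythroid cells were present in both libraries. Endocardial and endothelial markers (10 of 10) summed to 238 FPKM in KO and 246 FPKM in WT, with a median log2 ratio of -0.02. Epicardial markers (8 of 8) summed to 102 FPKM in KO and 95.6 FPKM in WT, with a median of 0.07. Cushion mesenchyme markers (9 of 9) summed to 554 FPKM in KO and 456 FPKM in WT, with a median of 0.19. Of these, 8 of 9 had KO values above WT values and 1 of 9 below, beside 67.0% of all expressed genes below. Erythroid markers (7 of 7) summed to 5557 FPKM in KO and 4981 FPKM in WT, but their median log2 ratio was -0.21. KO values were below WT values in 4 of 7, beside 67.0% of all expressed genes. The erythroid sum is dominated by a few globin genes, among them Hba-a1 at 2122 FPKM in KO and 1583 FPKM in WT, a level that is uncertain because Hba-a1 has a near-identical copy. Liver and yolk sac markers (3 of 7 expressed) summed to 32.0 FPKM in KO and 8.89 FPKM in WT, with Afp, the alpha-fetoprotein gene, at 16.6 FPKM in KO and 0.110 FPKM in WT (log2 ratio 3.99). KO values were above WT values in 3 of 3 expressed genes of this list, beside 67.0% of all expressed genes below. Trf was at 11.4 FPKM in KO and 8.19 FPKM in WT (0.43), and Ttr at 1.79 FPKM in KO and 0.438 FPKM in WT (0.96). Of the genes under the limit for expressed genes, Apoa1 was at 1.67 FPKM in KO and listed at 0 in WT. Alb was listed at 0 in KO and at 0 in WT. Lung and gut markers (1 of 6 expressed) summed to 2.69 FPKM in KO and 0.225 FPKM in WT. The expressed one was Foxf1, a neighbour of Fendrr, at 2.46 FPKM in KO and 0.0315 FPKM in WT. Sftpc and Cdx2 were listed at 0 in both. The part of these cell types in the values of the wall markers was not tested.

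Other genes of the trabeculae and of the conduction system, which develops from them, were also inside the 2-fold limit on FPKM + 1. Of 11 expressed genes of this list, 0 were past 2-fold and 1 was past 1.5-fold, beside 0.855% and 5.14% of all expressed genes. The median log2 ratio was -0.0029. Bmp10, the trabecular growth factor gene, was at 51.1 FPKM in KO and 47.2 FPKM in WT (log2 ratio 0.11), and Gja5, which encodes a connexin of fast-conducting muscle, was at 39.3 FPKM in KO and 44.4 FPKM in WT (-0.17). Pcp4, a calmodulin-binding protein gene of the Purkinje fibres, was the gene past 1.5-fold, at 2.85 FPKM in KO and 1.07 FPKM in WT (0.89). On FPKM alone its KO and WT values were more than 2-fold apart, with the WT value near the limit for expressed genes. No share of all genes was computed on that scale.

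Other genes of the compact wall were compared next. Of 11 expressed genes, 0 were past 1.5-fold, beside 5.14% of all expressed genes. That is near the background and is not a result about these genes. KO values were below WT values in 9 of 11, beside 67.0% of all expressed genes. The median log2 ratio of the 11 was -0.14, against -0.11 over all genes. Tbx20, a T-box factor required for growth of the wall, was at 46.5 FPKM in KO and 49.6 FPKM in WT (log2 ratio -0.09). The cyclin genes Ccnd1, Ccnd2 and Ccnd3, which carry cells into S phase, had log2 ratios of -0.15, -0.23 and -0.18, and their kinase partner Cdk4 was at 117 FPKM in KO and 143 FPKM in WT (-0.28). Jarid2, a Polycomb cofactor gene that is needed for normal growth of the wall, was at 7.65 FPKM in KO and 6.15 FPKM in WT (0.27).

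Of the signals that shape the trabeculae, 26 genes were expressed, with a median log2 ratio of 0.02. Past 2-fold were 0 and past 1.5-fold was 1, beside 0.855% and 5.14% of all expressed genes. The receptor gene Erbb3 was that gene, at 1.98 FPKM in KO and 3.54 FPKM in WT (log2 ratio -0.61). The ligand gene Nrg1 was at 1.94 FPKM in KO and 2.11 FPKM in WT (-0.08). Its muscle receptors went in different directions, Erbb2 at 11.5 FPKM in KO and 16.0 FPKM in WT (-0.44) and Erbb4 at 7.19 FPKM in KO and 6.00 FPKM in WT (0.23).

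The Notch side of the same list had no gene past 1.5-fold on FPKM + 1, beside 5.14% of all expressed genes. Notch1, the endocardial receptor gene, was at 3.51 FPKM in KO and 3.88 FPKM in WT (log2 ratio -0.11), and the ligand gene Jag2 was at 1.25 FPKM in KO and 2.13 FPKM in WT (-0.48). The matrix proteoglycan gene Vcan, part of the jelly on which trabeculae grow, was at 65.2 FPKM in KO and 52.8 FPKM in WT (0.30). Of the signals for growth of the compact wall, 12 genes were expressed, with a median of -0.04, and 0 were past 1.5-fold (beside 5.14% of all expressed genes). The imprinted growth factor gene Igf2 was at 1004 FPKM in KO and 671 FPKM in WT (0.58), just inside that limit, and Fgf9 at 2.72 FPKM in KO and 2.01 FPKM in WT (0.30).

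Of the factors known to control the natriuretic peptide genes, 14 were expressed, with a median log2 ratio of -0.16. On FPKM + 1, 0 were past 2-fold and 1 was past 1.5-fold, beside 0.855% and 5.14% of all expressed genes. Myocd, which encodes the SRF coactivator myocardin, was at 6.36 FPKM in KO and 10.8 FPKM in WT (log2 ratio -0.68). Nkx2-5 was at 20.4 FPKM in KO and 26.6 FPKM in WT (-0.36), and Gata4 was at 12.1 FPKM in KO and 15.3 FPKM in WT (-0.32). Gata6 went the other way, at 24.3 FPKM in KO and 21.8 FPKM in WT (0.14). KO values were below WT values in 9 of the 14 and above in 5, beside 67.0% of all expressed genes below. Hand1, a bHLH factor gene of the left ventricle, was at 6.86 FPKM in KO and 4.35 FPKM in WT (0.55).

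Downstream of the peptides, 7 genes of processing, receptors and clearance were expressed, with a median log2 ratio of 0.13. None was past 1.5-fold, a limit that 5.14% of all expressed genes passed. The receptor gene Npr1 was at 3.35 FPKM in KO and 2.37 FPKM in WT (0.37), and the clearance receptor gene Npr3, an endocardial gene, at 36.2 FPKM in KO and 32.9 FPKM in WT (0.13). Corin, the protease gene for the Nppa precursor, was at 5.02 FPKM in KO and 5.99 FPKM in WT (-0.22). In the list of genes that respond to load or stretch, as the natriuretic genes do, 11 were expressed, and the median was -0.17. On FPKM + 1 none of them was past 1.5-fold, beside the same 5.14%. Ankrd1 was at 495 FPKM (494.6) in KO and 495 FPKM (494.7) in WT, and Csrp3 at 740 FPKM (739.56) in KO and 907 FPKM in WT (-0.29).

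The genes that work with Mycn were taken by role. Of 10 genes that MYC factors are known to activate, 10 had a KO value below the WT value, against 67.0% of all expressed genes, and their median log2 ratio was -0.21. Most of these genes averaged between 20 and 1000 FPKM. The share below WT was 73.6% for genes at 20 to 100 FPKM (median log2 ratio -0.15). At 100 to 1000 FPKM it was 73.3% (-0.18). None of the 10 was past 1.5-fold, beside 5.14% of all expressed genes. Cad, for the first steps of pyrimidine synthesis, was at 3.39 FPKM in KO and 4.94 FPKM in WT (log2 ratio -0.44), and Npm1, for the nucleolar protein nucleophosmin, at 865 FPKM in KO and 930 FPKM (929.658) in WT (-0.10).

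In the network of MYC partners and antagonists, 8 genes were expressed, with a median log2 ratio of 0.02. Of the 8, 1 was past 1.5-fold, beside 5.14% of all expressed genes. That was the antagonist gene Mnt, at 1.80 FPKM in KO and 0.700 FPKM in WT (0.72), near the limit for expressed genes. On FPKM alone the KO and WT values of Mnt were more than 2-fold apart, a scale on which no share of all genes was computed. Mxi1, another antagonist, was at 10.5 FPKM in KO and 6.75 FPKM in WT (0.57), inside the 1.5-fold limit on FPKM + 1. The antagonist gene Mxd4 was at 12.9 FPKM in KO and 15.8 FPKM in WT (-0.27), and Mxd1 and Mxd3 had log2 ratios of 0.01 and 0.03. Max, the common partner, was at 6.36 FPKM in KO and 6.58 FPKM in WT (-0.04). Myc itself did not reach a mean of 1 FPKM, at 1.04 FPKM in KO and 0.893 FPKM in WT.

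Relatives of Cited1 and Cpne5 showed no value past 1.5-fold, beside 5.14% of all expressed genes. Cited2 was at 7.91 FPKM in KO and 6.79 FPKM in WT (log2 ratio 0.19), and Cited4 at 5.70 FPKM in KO and 4.62 FPKM in WT (0.26). Of the acetyltransferase genes, Crebbp was at 6.69 FPKM in KO and 7.88 FPKM in WT (-0.21), and Ep300 at 4.52 FPKM in KO and 4.62 FPKM in WT (-0.03). Of the 8 other copine genes, 4 were expressed, and 4 of 4 had KO values below WT values, beside 67.0% of all expressed genes, with Cpne3 at 9.95 FPKM in KO and 11.2 FPKM in WT (-0.16) and Cpne8 at 4.58 FPKM in KO and 6.12 FPKM in WT (-0.35).

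**Figure D3:**
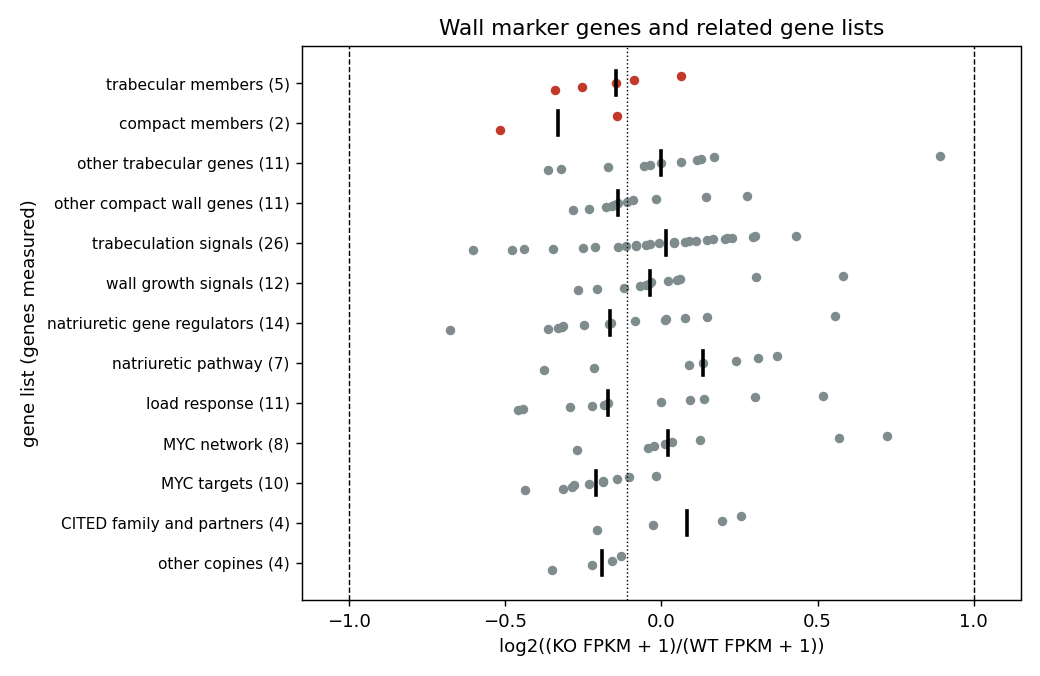
Log2 ratio of KO over WT on FPKM + 1 for each expressed gene (points) of the wall markers (red) and of 11 related lists (grey), with the list's median as a black bar and the number of expressed genes in brackets. The dotted line is the median of all expressed genes (-0.11) and the dashed lines mark 2-fold. No gene of these lists lies outside the dashed lines on this scale, and the point nearest to one is Pcp4 at 0.89. On FPKM alone, Pcp4 and Mnt are more than 2-fold apart.

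Genes next to the members on the chromosomes gave no shared pattern. Of 24 neighbours (up to 2 with a row on each side of a member), 17 were expressed, with log2 ratios from -0.62 to 0.56. On FPKM + 1, 0 of them were past 2-fold and 1 was past 1.5-fold, beside 0.855% and 5.14% of all expressed genes. Beside Mycn, the RNA helicase gene Ddx1 was at 103 FPKM in KO and 99.0 FPKM in WT (0.06). Beside Hey2, Hddc2 was at 31.8 FPKM in KO and 37.6 FPKM in WT (-0.23), and Hint3, the second gene on the other side, was the one past 1.5-fold, at 4.81 FPKM in KO and 7.91 FPKM in WT (-0.62). Beside Cited1, the ribosomal protein gene Rps4x was at 855 FPKM in KO and 1015 FPKM in WT (-0.25), opposite in sign to Cited1. Beside Cpne5, Ppil1 was at 27.6 FPKM in KO and 34.0 FPKM in WT (-0.29), while the nearest genes to Smpx, Yy2 and Klhl34, did not reach a mean of 1 FPKM.

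The log2 ratios of the members were recomputed with 2 other pseudocounts and 5 other scalings. With median centring the median of all genes was brought from -0.11 to 0, and every member had a log2 ratio above its deposited one. Cpne5 was at -0.02 and Mycn at -0.40 in that setting. Quantile normalization put Nppb at -0.12, Nppa at -0.07 and Cpne5 at -0.09. Mycn stayed between -0.56 and -0.39, Nppb between -0.34 and -0.12, Smpx between -0.26 and -0.08 and Cited1 between 0.06 and 0.26. Nppa (-0.15 to -0.01), Cpne5 (-0.15 to -0.01) and Hey2 (-0.15 to 0) came close to 0, and Hey2 had equal values in KO and WT after quantile normalization.

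**Figure D4:**
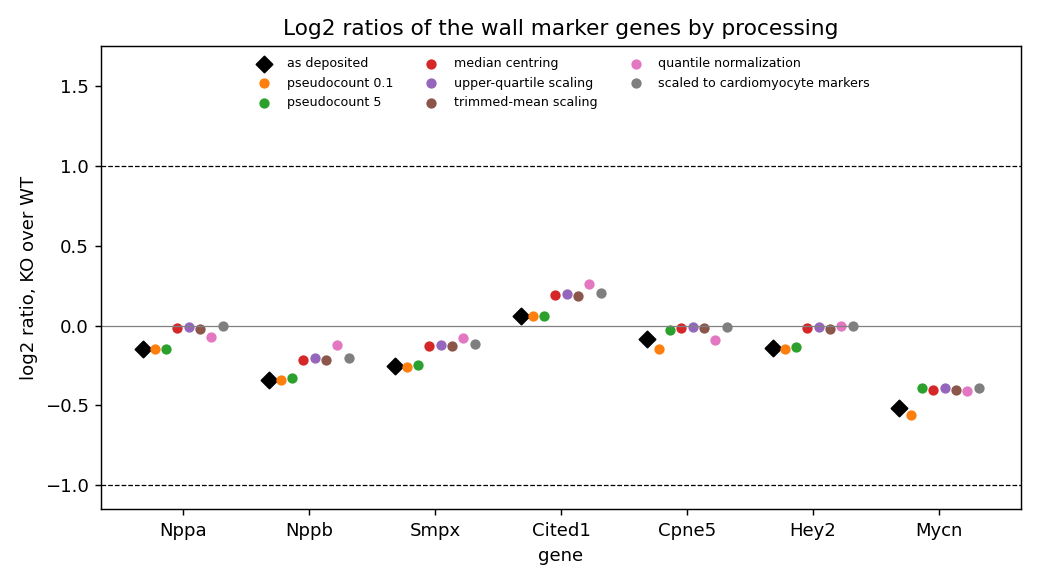
Log2 ratio of KO over WT of each wall marker gene under the values as deposited (black diamond, pseudocount 1) and under 7 alternatives (coloured circles, named in the legend), with dashed lines at 2-fold. No point reaches a dashed line. Mycn is the lowest gene under every one of these settings and Cited1 the only one above 0 under every one.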

How the data were processed

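Per the labels, ventricles were pooled (4 each for KO and WT) and made into 1 library per pool. The authors deposited 1 FPKM value per gene symbol and library, with Cufflinks 2.0.2, TopHat2 2.0.6 and Bowtie2 2.0.2 and the build mm9 named in the submitters' processing notes. Gene annotation and options are not given in the sources used here. From these values log2((KO + 1)/(WT + 1)) was computed where KO and WT averaged 1 FPKM or more. This scale understates differences of low genes, and every fold limit was applied on it. The limit was 2-fold (log2 ratios from 1 upwards or from -1 downwards), with 1.5-fold as a looser one. No p-value was computed. Relative depth came from genes under 0.3 FPKM, where KO over WT, divided by 0.796, was a quotient of integers no larger than 10 (tolerance 0.1%) in 69.3% of 2213 genes. The members and lists were chosen with earlier results of these data known. Named were all 7 members and, per list, the 2 genes of highest mean and the 2 of largest absolute log2 ratio. Not each one is printed, and others (among them Gja5, the cyclins, Nrg1, Erbb2, Erbb4, Notch1, Nkx2-5, Gata4, Corin, Max, Myc, Mxd1, Mxd3, Myh6, Ep300, Tnnt2, Sln, Nr2f2, Xist and Eif2s3y) were picked with their values in view, as was the X chromosome median. Ddx3y, Uty, Apoa1 and Gata6 were likewise picked with their values in view. Genes of like pattern were not sought, because over 2 libraries any pair of genes correlates at +1 or -1. Promoters and gene order came from RefSeq (GRCm38.p6) by symbol, all 7 members being matched, and overlaps from GENCODE vM21. The 2-fold limit and the estimate of relative depth were tried on simulated data. All planted changes were larger than 2-fold, so changes of the size seen in the members and the 1.5-fold limit were not tried. Python 3.11.15, numpy 2.4.6, pandas 2.3.3 and matplotlib 3.10.9 were used.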

Additional observations from a re-analysis of the deposited data

How the results depend on the processing

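No paired analysis was possible because KO and WT have a single library each. Leaving out a library was not possible either. No wall marker passed 2-fold under any of the 10 alternatives, nor 1.5-fold with the looser limit. The trabecular median ranged from -0.20 to -0.01 and the compact median from -0.35 to -0.20. Genes higher and lower in KO, 53 and 44 as deposited, numbered 98 and 98 when 0.1 FPKM was added, 16 and 17 when 5 FPKM was added, and 175 and 408 at 1.5-fold. With genes averaging under 5 FPKM left out, 26 were higher. Lower genes numbered 27 with median centring and with trimmed-mean scaling, and 26 with upper-quartile scaling, with quantile normalization and with scaling to the cardiomyocyte markers. Depth is unknown, so no counting interval could be given, which limits Cpne5 most.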

Other observations

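The values of Smpx were listed with 8 significant digits in KO and 7 in WT, while those of the other members had at most 6. Of the expressed genes, 2091 (18.4%) had a value with more than 6 digits in at least 1 library. What was done to these values before deposit is not given in the sources used here.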
